A study of Mus musculus with 2 samples.

Results

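The genes described here encode the enzymes that build cholesterol and fatty acids, together with the proteins that switch those enzymes on. They were chosen as 33 listed symbols. The platform annotation named probe sets for 32 of them, out of 18193 genes named on the array, and Acat2 was not analysed here. All 32 were measured, meaning that their brightest probe set lay above the 40th percentile of its array on at least 1 of the 2 arrays, and all 32 lay above it on both. The comparison was made between lung-recovered CMT-93-PM1 cells and the parental CMT-93 line, a mouse rectal carcinoma line. Per the labels, CMT-93-PM1 was cultured from lung tumours taken 8 weeks after CMT-93 was injected by tail vein into 6-week-old female C57BL/6 mice. The labels do not say how many tumours or mice contributed. Both cultures were kept in the same medium with 10% fetal bovine serum, itself a source of cholesterol and fatty acids. The question was how expression in the lung-metastatic derivative differs from that in its parent.

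Each group was 1 culture on 1 array, so there is no replicate error, no test and no p-value for any difference, and a difference between the lines cannot be told apart from one of culture, labelling or hybridization. Differences are log2 ratios, lung-recovered minus parental, on the log2 signals as deposited. The 40th percentile of each array, 4.59 log2 in CMT-93-PM1 and 4.69 in CMT-93, served as a floor, to which lower signals were raised before ratios were taken. The only spread available is technical. For 5782 genes, ratios from different probe sets clear of both floors could be compared, and their SD within a gene had a median of 0.17 and a 90th percentile of 0.49. Of the intestinal epithelial markers, 6 of 10 were above the floor in each line. Krt19 was brightest at 12.98 log2 in CMT-93-PM1 and 12.72 in CMT-93, and Cdh1 read 12.52 and 12.66 in those lines. The intestinal gene Cdx2, however, was dim, at 5.08 in CMT-93-PM1 and 5.24 in CMT-93. The intestinal genes Krt20, Vil1, Cdx1 and Lgals4 were at the floor on both arrays. Summed on the linear scale, the markers of other cell types came to 151 in CMT-93-PM1 and 171 in CMT-93 for fibroblasts, 292 and 206 for leukocytes, 718 and 481 for endothelium, 210 and 434 for lung epithelium and 877 and 676 for adipocytes, against 29900 and 22657 for the intestinal epithelial list. Of the fibroblast markers, 3 of 7 were above the floor in each line, with Col1a2 the brightest at 5.34 in CMT-93-PM1 and 5.65 in CMT-93, and Col1a1, Col3a1, Pdgfra and Lum at the floor. Of the leukocyte markers, 4 of 6 were above the floor in each line, with Ptprc and Adgre1 at the floor. Cd68 was brightest by mean signal, at 7.05 in CMT-93-PM1 and 5.23 in CMT-93. Cd3e read 6.00 and 6.01 in those lines and Lyz2 5.53 in each, both brighter than Cd68 in CMT-93. Of the 5 adipocyte markers analysed, 1 was above the floor in CMT-93-PM1 and 2 in CMT-93. Adipoq, Lep and Lpl were at the floor on both arrays, while Fabp4 read 9.67 in CMT-93-PM1 and 9.23 in CMT-93. Of the endothelial markers, 2 of 5 were above the floor in each line, and Cdh5 was brightest by mean signal, at 9.30 in CMT-93-PM1 and 4.21, at the floor, in CMT-93. Tek went the other way, at 3.43, at the floor, in CMT-93-PM1 and 8.57 in CMT-93, and Kdr read 5.89 and 5.94 in those lines, with Pecam1 and Emcn at the floor on both. Of the lung epithelial markers, 3 of 5 were above the floor in CMT-93-PM1 and 4 of 5 in CMT-93, with Scgb1a1 at the floor on both. Napsa was brightest by mean signal, at 5.69 in CMT-93-PM1 and 7.74 in CMT-93. Sftpb read 6.32 and 6.70 in those lines, brighter than Napsa in CMT-93-PM1. The part of other cells in the values below was not tested, and in bulk cultures fewer cells of a type and less RNA per cell cannot be told apart.

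Cells make cholesterol from acetyl-CoA through mevalonate, isoprenoids and squalene, and make fatty acids from the same acetyl-CoA through malonyl-CoA and palmitate. Both routes are under the SREBP transcription factors, membrane proteins of the endoplasmic reticulum that the escort protein Scap carries to the Golgi for cleavage when sterols are low, while Insig proteins hold Scap back when sterols are plentiful. The factor made from Srebf2 is best known for driving the sterol enzymes, and those made from Srebf1 for driving fatty acid synthesis and desaturation. Intestinal epithelium and the carcinomas derived from it both make these lipids themselves and take them up.

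The lipid synthesis genes did not shift as a block. The sterol enzymes leaned upward in the lung-recovered line, with a median log2 ratio of 0.25 and a mean of 0.27 over 16 measured genes. The fatty acid enzymes had a median of -0.15 but a mean of 0.06 over 9 genes, so their direction depended on the statistic. The median of all 13332 measured genes was 0 and their mean 0.04. Of the 32 measured genes, 3 were at least 2-fold higher in CMT-93-PM1, namely Mvd, Fads2 and Fads1, against 4.42% of all measured genes, and 0 were at least 2-fold lower, against 2.55%. At the looser limit of 1.5-fold, 7 of 32 were higher (21.9%, against 11.5% of all measured genes) and 2 were lower, Scd1 and Scap (6.25%, against 6.95%). Nearest to the 1.5-fold limit were Fdft1, just inside at 0.59, and Insig1, just outside at 0.58 on the log2 scale. Of the 7, 5 were sterol enzymes, which is 31.2% of that branch. Ratios lay above 0 for 17 of the 32 genes (53.1%), against 49.2% of all measured genes, and below 0 for 15, against 48.7%. With the floor at the 60th percentile, which leaves out dimmer genes, 55.1% of measured genes lay above 0 and their median was 0.06. Among the sterol enzymes 10 of 16 lay above 0, and among the fatty acid enzymes 3 of 9. Scaling the arrays to equal medians raised every ratio by 0.10 and the share above 0 to 61.0% of all genes, 12 sterol enzymes and 4 fatty acid enzymes. The 2 branch medians differed by 0.40, and by 0.20 between the means, since Fads1 and Fads2 stand far above the other fatty acid enzymes. These are descriptions of 2 arrays and were not tested.

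**Figure D1:**
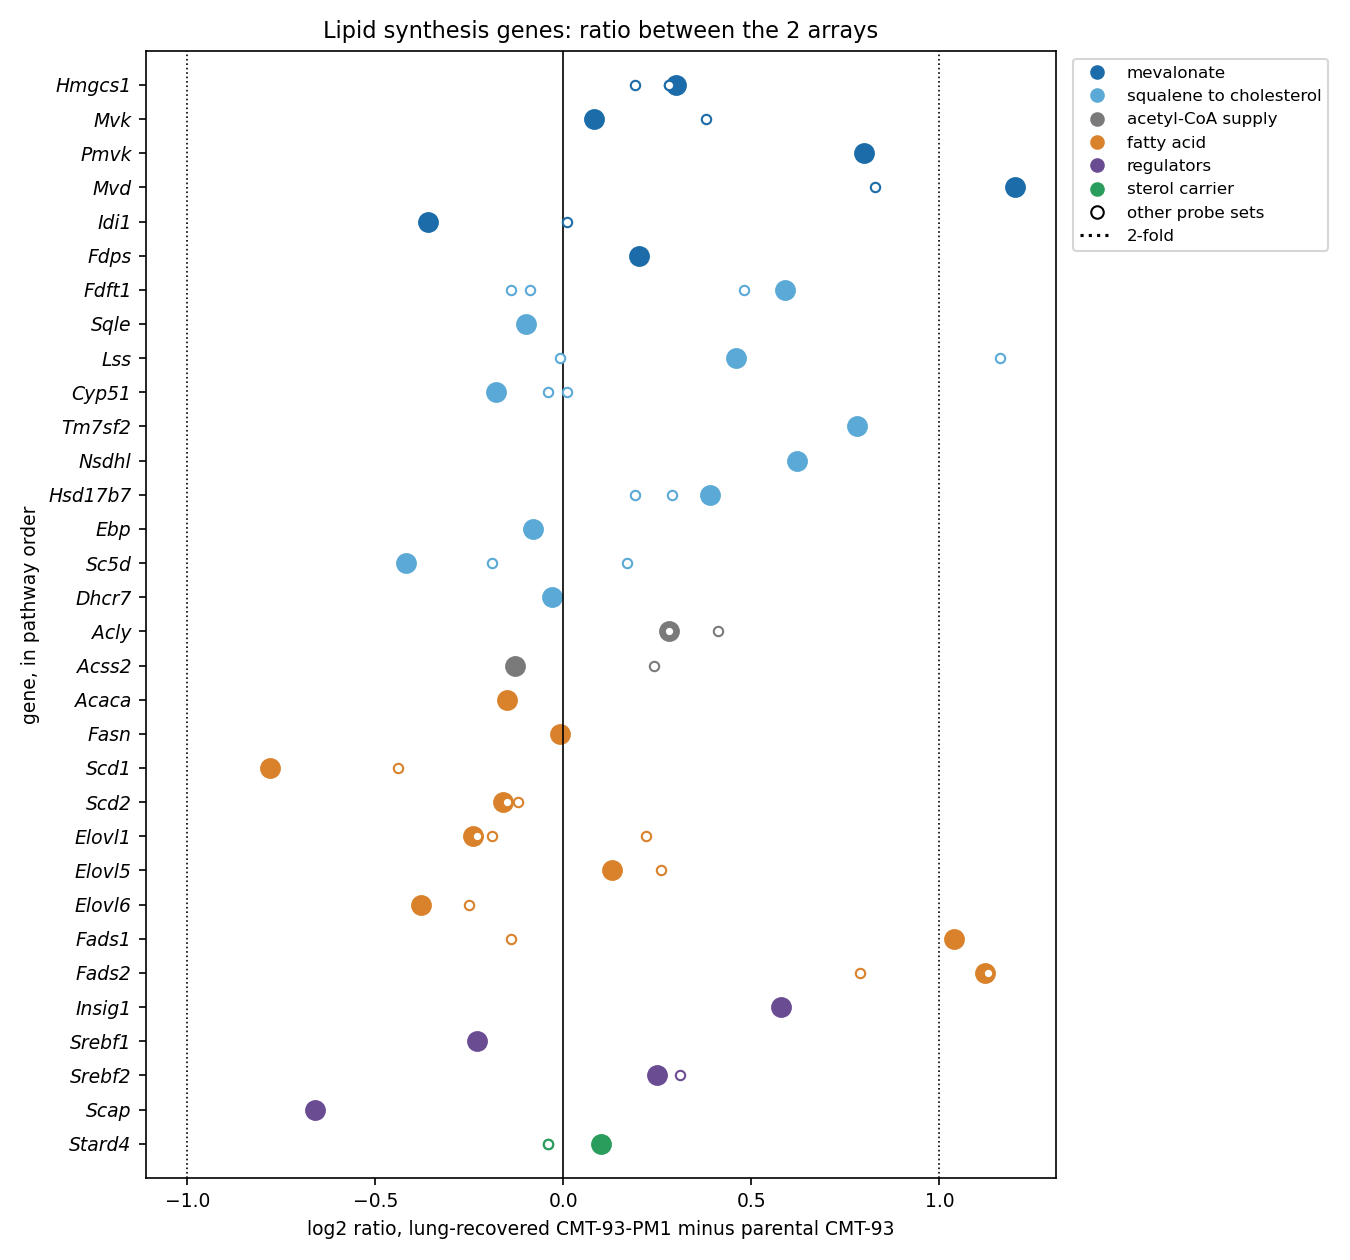
Log2 ratio (horizontal axis, lung-recovered minus parental) of each of the 32 genes in pathway order. Filled points are the brightest probe set, open points the other probe sets with signals clear of both floors, and dotted lines mark 2-fold. Mvd (1.20), Fads2 (1.12) and Fads1 (1.04) lie past the right-hand line and no filled point lies past the left-hand one.

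**Figure D2:**
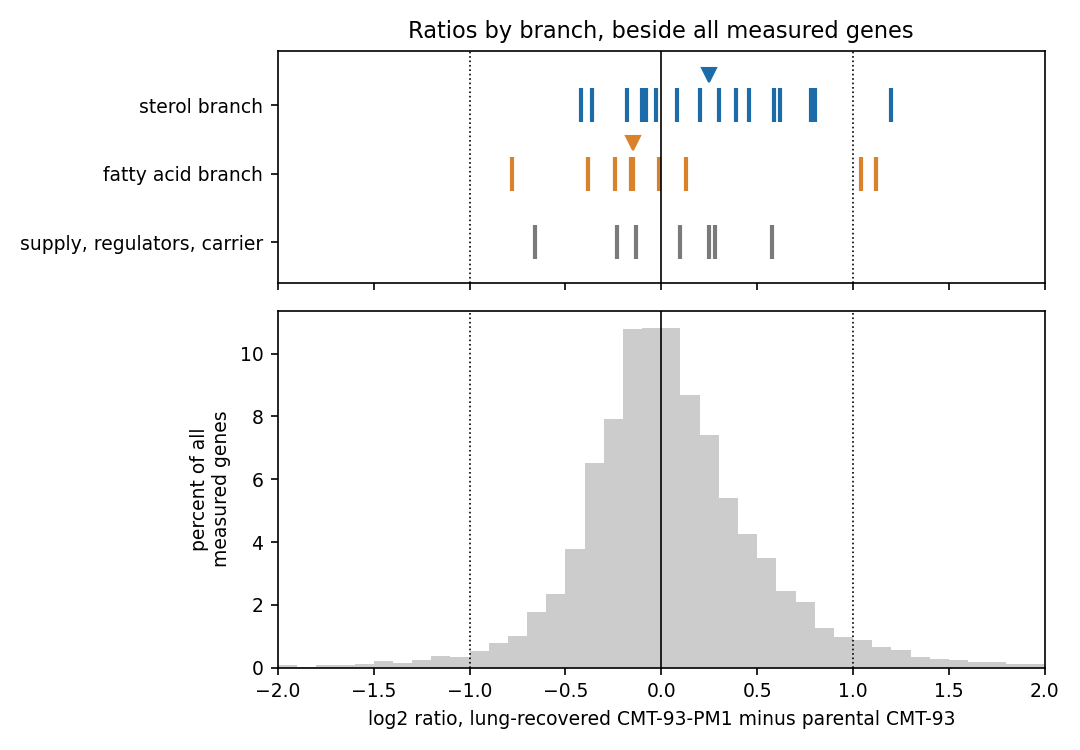
Each upright mark in the upper panel is the log2 ratio of 1 gene, by branch, and triangles mark the medians of the sterol (0.25) and fatty acid (-0.15) branches. The lower panel gives the share of all 13332 measured genes in bins of the same ratio, of which 189 lie outside the axis. The marks of both branches fall inside the bulk of all genes except for a few at the right.

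Promoters are shown for the 3 sterol enzymes furthest upward and the 2 furthest downward among those with a single window in the promoter table, for Hmgcs1 and for Fads2, so that high and low members can be compared. They were chosen after the ratios were seen. RefSeq promoter windows on GRCm38.p6, 250 bases before to 50 after the annotated start, were found for 26 of the 33 genes. Each window was searched on both strands for TCACNCCAC, a core of the sterol regulatory element that SREBPs bind, for CCAAT, the box of the SREBP partner NF-Y, and for the E-box CACGTG. Capitals mark the matches, so that ATTGG is CCAAT on the other strand. Sequences run 5′ to 3′ on the strand of the gene. The windows are those of Mvd at chr8:122443373-122443672 on the minus strand, Tm7sf2 at chr19:6067801-6068100 on the minus strand, Nsdhl at chrX:72918271-72918570 on the plus strand, Idi1 at chr13:8885356-8885655 on the plus strand, Sc5d at chr9:42264251-42264550 on the minus strand, Hmgcs1 at chr13:119690101-119690400 on the plus strand and Fads2 at chr19:10101454-10101753 on the minus strand.
Mvd: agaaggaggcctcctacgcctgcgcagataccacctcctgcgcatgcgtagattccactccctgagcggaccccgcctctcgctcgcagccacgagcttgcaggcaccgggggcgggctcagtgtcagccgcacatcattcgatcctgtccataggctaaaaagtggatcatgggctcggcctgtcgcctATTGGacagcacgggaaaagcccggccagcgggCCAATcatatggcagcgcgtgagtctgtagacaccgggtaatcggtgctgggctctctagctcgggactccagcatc
Tm7sf2: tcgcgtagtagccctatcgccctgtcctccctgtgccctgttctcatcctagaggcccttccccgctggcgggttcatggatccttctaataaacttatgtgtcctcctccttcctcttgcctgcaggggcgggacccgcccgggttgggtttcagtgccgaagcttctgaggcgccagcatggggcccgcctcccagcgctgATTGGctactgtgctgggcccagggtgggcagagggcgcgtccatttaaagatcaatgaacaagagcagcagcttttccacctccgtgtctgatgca
Nsdhl: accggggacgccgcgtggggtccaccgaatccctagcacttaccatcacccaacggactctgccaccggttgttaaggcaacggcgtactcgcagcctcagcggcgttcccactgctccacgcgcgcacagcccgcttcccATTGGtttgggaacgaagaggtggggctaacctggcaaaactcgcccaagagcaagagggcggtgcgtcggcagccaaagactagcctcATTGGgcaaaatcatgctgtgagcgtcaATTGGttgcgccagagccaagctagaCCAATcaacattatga
Idi1: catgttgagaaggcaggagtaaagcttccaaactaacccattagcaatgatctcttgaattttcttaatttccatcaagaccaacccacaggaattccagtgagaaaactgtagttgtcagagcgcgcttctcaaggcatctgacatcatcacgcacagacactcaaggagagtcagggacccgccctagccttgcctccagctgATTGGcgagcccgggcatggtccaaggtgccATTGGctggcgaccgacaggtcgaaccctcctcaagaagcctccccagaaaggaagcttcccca
Sc5d: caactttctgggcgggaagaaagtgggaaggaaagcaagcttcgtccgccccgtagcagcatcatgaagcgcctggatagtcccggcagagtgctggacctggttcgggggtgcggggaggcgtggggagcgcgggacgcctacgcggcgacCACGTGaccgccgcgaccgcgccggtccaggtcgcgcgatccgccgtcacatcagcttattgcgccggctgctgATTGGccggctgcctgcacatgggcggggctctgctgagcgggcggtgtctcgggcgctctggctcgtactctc
Hmgcs1: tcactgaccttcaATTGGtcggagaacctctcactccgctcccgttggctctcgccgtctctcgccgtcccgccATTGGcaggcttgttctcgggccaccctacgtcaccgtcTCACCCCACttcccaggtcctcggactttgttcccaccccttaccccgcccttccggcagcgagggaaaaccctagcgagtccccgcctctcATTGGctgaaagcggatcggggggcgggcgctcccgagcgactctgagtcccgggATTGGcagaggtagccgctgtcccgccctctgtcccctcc
Fads2: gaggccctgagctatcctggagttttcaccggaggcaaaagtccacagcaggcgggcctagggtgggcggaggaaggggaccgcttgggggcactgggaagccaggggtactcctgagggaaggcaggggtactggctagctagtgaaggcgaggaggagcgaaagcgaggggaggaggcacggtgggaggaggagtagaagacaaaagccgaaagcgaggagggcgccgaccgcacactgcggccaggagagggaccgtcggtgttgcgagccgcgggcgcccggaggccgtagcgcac
In these windows Mvd held 2 CCAAT matches, at positions -60 and -27 counted from the start, and Idi1 also held 2, at -45 and -14, although their log2 ratios were 1.20 and -0.36. Tm7sf2 and Sc5d each held 1, with a CACGTG besides in Sc5d, Nsdhl held 4 and Hmgcs1 4, while Fads2 held none of the 3 motifs. Hmgcs1 was the single member with TCACNCCAC, at position -137, and its log2 ratio was 0.30. Across the sterol branch 13 of 14 genes with a window held CCAAT and 3 of 14 held CACGTG. In the fatty acid branch 3 of 6 held CCAAT and 1 of 6 held CACGTG. Among 10736 measured genes with a window, 42.7% held CCAAT, 11.4% CACGTG and 1.43% TCACNCCAC, and among all 27025 genes in the table the shares were 41.1%, 8.09% and 1.44%. No matches of different motifs overlapped in the members' windows, and only in Fasn did 2 CCAAT matches on opposite strands overlap. CCAAT was thus common to sterol enzymes on either side of 0. A match describes letters in these windows and no more, and no binding was measured.

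The mevalonate part of the sterol route was uneven from step to step. Hmgcs1, the cytosolic HMG-CoA synthase that commits acetyl-CoA to the route, read 10.74 log2 in CMT-93-PM1 and 10.44 in CMT-93. Its other probe sets above the floor gave ratios between 0.19 and 0.28, so every measured probe set of Hmgcs1 was slightly higher in the lung-recovered line. Mevalonate kinase, Mvk, read 7.39 in CMT-93-PM1 and 7.31 in CMT-93, a ratio of 0.08, and 0.38 by its other probe set. The next kinase, Pmvk, which adds the second phosphate to mevalonate, read 8.18 in CMT-93-PM1 and 7.38 in CMT-93, or 1.74-fold higher, by its single probe set.

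Mvd was furthest upward of all 32 genes. It encodes the decarboxylase that turns mevalonate diphosphate into isopentenyl diphosphate, the building block of all isoprenoids. Its signal was 8.29 in CMT-93-PM1 and 7.09 in CMT-93, 2.30-fold higher, and its other probe set read 8.09 and 7.26 in those lines, 1.78-fold higher. The 2 probe sets therefore had the same direction but fell on either side of 2-fold. Idi1, the isomerase that acts on the product of Mvd, went the other way, with 9.01 in CMT-93-PM1 and 9.37 in CMT-93, a ratio of -0.36, and 0.01 by its other probe set. Fdps, which joins isoprenoid units into farnesyl diphosphate, read 10.71 in CMT-93-PM1 and 10.51 in CMT-93. Consecutive enzymes of 1 route thus had ratios from -0.36 to 1.20.

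From squalene onward 5 of 10 genes had ratios above 0 and 5 below, with a median of 0.18. Fdft1, squalene synthase, which takes farnesyl diphosphate into the sterol route alone, read 9.04 in CMT-93-PM1 and 8.45 in CMT-93 by its brightest probe set, with ratios of 0.59 and 0.48 by its 2 bright probe sets. Its 2 dim probe sets had ratios of -0.09 and -0.14, so its higher value rests on the bright ones. Sqle, squalene epoxidase, a flux-controlling step, read 9.86 in CMT-93-PM1 and 9.96 in CMT-93. Lss, which closes the ring to lanosterol, was uncertain in size: its brightest probe set read 9.22 in CMT-93-PM1 and 8.76 in CMT-93, another read 8.94 and 7.78 in those lines (2.23-fold higher), and a dim one read 5.86 and 5.87.

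The later sterol steps split in the same way. Tm7sf2, a sterol reductase that acts just after lanosterol demethylation, read 6.67 in CMT-93-PM1 and 5.89 in CMT-93, or 1.72-fold higher. Its ratio was 0.78, but 0.49 when the floor was set to the 60th percentile. Nsdhl, a dehydrogenase that helps to strip methyl groups from the sterol ring, read 9.29 in CMT-93-PM1 and 8.67 in CMT-93, 1.54-fold higher. Its partner in that step, the ketoreductase Hsd17b7, read 8.66 in CMT-93-PM1 and 8.27 in CMT-93, with its other probe sets at ratios of 0.29 and 0.19. Both were therefore on the upper side. The demethylase Cyp51, which removes the methyl group that precedes the Tm7sf2 step, read 9.57 in CMT-93-PM1 and 9.75 in CMT-93, with ratios of 0.01 and -0.04 by its other probe sets. At the end of the route the isomerase Ebp had 9.11 in CMT-93-PM1 and 9.19 in CMT-93, and Dhcr7, the final reductase to cholesterol, had 7.40 and 7.43 in those lines. Sc5d, the desaturase between Ebp and Dhcr7, was the lowest of the sterol enzymes, at 9.92 in CMT-93-PM1 and 10.34 in CMT-93 by its brightest probe set. Its other probe sets gave ratios of 0.17 and -0.19, so its direction was not shared.

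**Figure D3:**
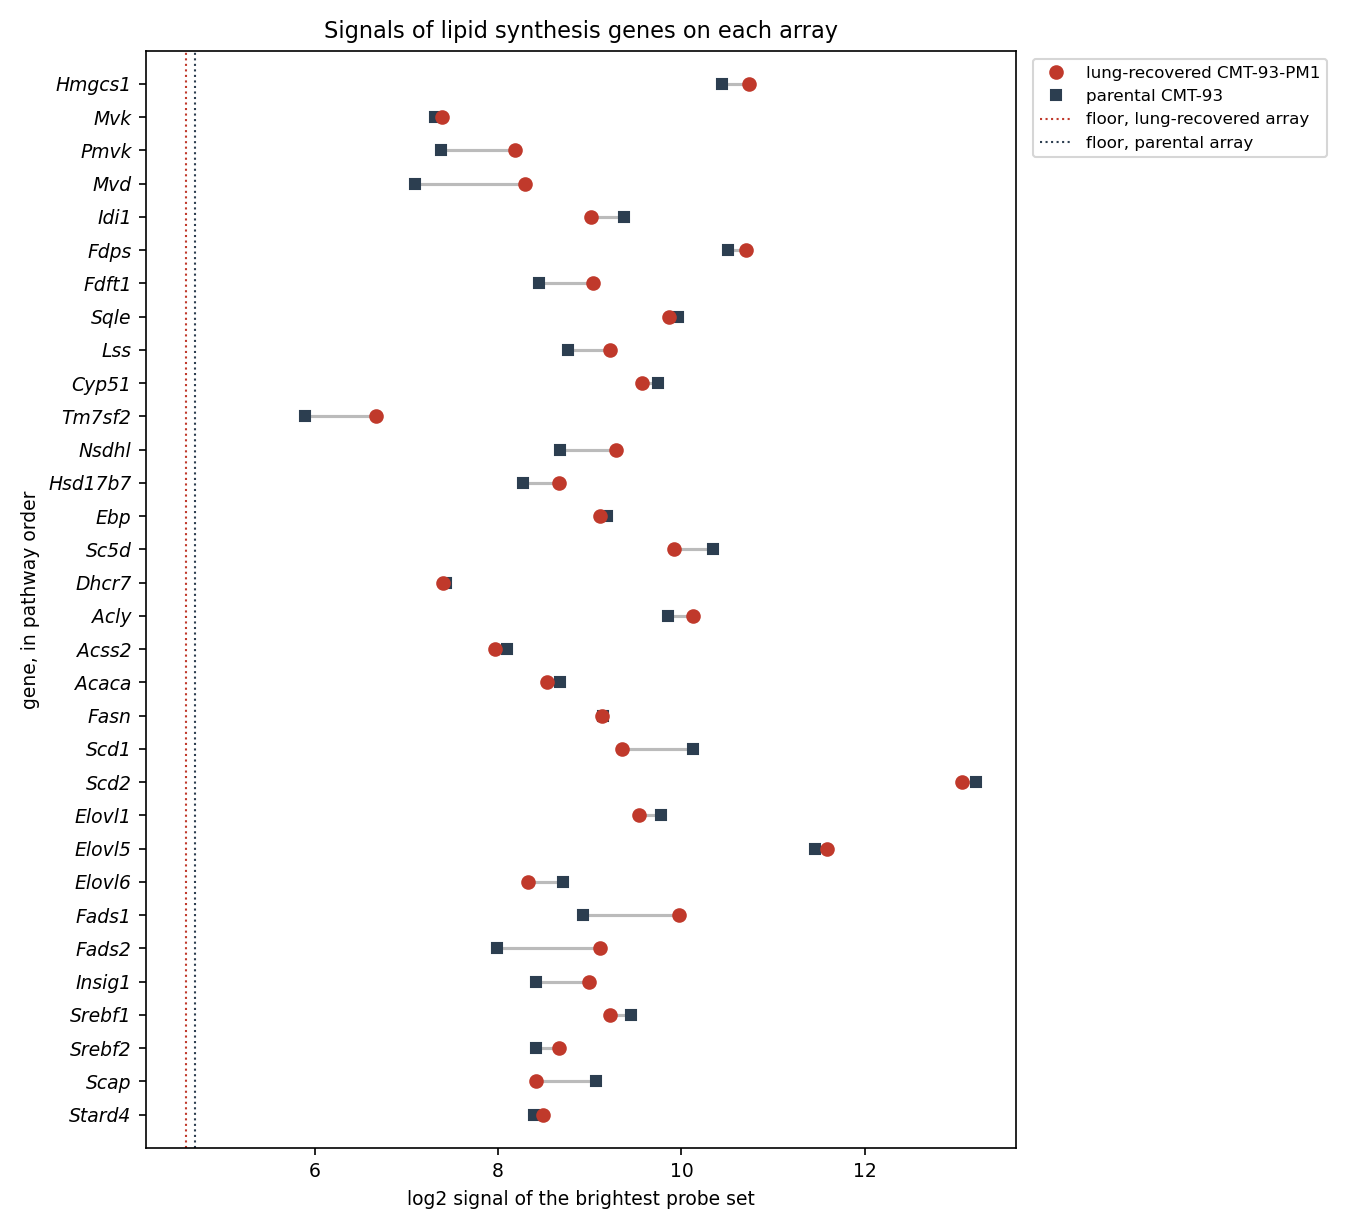
Log2 signal of the brightest probe set of each gene on the lung-recovered array (circles) and the parental array (squares), in pathway order. Dotted lines are the floors, 4.59 and 4.69, and signals of different genes are not comparable in height. All genes lie to the right of both floors and most pairs of symbols lie close together.

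Acetyl-CoA for both routes comes from Acly, which splits citrate in the cytosol, and from Acss2, which activates acetate. Acly read 10.13 in CMT-93-PM1 and 9.85 in CMT-93, and its 3 probe sets above the floor had ratios of 0.28, 0.28 and 0.41. Acss2 read 7.97 in CMT-93-PM1 and 8.10 in CMT-93, with ratios of -0.13 and 0.24 by its bright probe sets. Neither gene thus differed by 1.5-fold or more, and the supply of acetyl-CoA itself was not measured.

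The fatty acid branch separated by product, a grouping made after the values were seen. All 6 genes of saturated and monounsaturated fatty acid synthesis had ratios below 0 by their brightest probe set (median -0.20), except that Fasn was above 0, at 0.09, with arrays scaled to equal medians. All 3 genes of the polyunsaturated route had ratios above 0. Their median of 1.04 is the ratio of Fads1, and Elovl5 was at 0.13. Of all measured genes, 49.2% had ratios above 0 and 48.7% below. Acaca, the acetyl-CoA carboxylase that makes malonyl-CoA, read 8.53 in CMT-93-PM1 and 8.68 in CMT-93, and Fasn, the synthase that builds palmitate, read 9.13 and 9.14 in those lines. The enzymes at the head of the branch were therefore close to equal.

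The desaturases that place the first double bond had ratios below 0. Scd1, a stearoyl-CoA desaturase that makes oleate and palmitoleate, read 9.35 in CMT-93-PM1 and 10.13 in CMT-93, 1.72-fold lower, and 8.24 and 8.68 in those lines by its other probe set, 1.36-fold lower. Scd2, its close paralog, read 13.06 in CMT-93-PM1 and 13.22 in CMT-93, with ratios of -0.16, -0.15 and -0.12 by its 3 probe sets. All 5 probe sets of these genes lay below 0. The Scd genes are closely related neighbours on chromosome 19, and signal shared between them is possible. Elovl6, which lengthens palmitate to stearate and so feeds Scd1, read 8.33 in CMT-93-PM1 and 8.71 in CMT-93, with a ratio of -0.25 by its other measured probe set. Elovl1, an elongase of very long saturated chains, read 9.54 in CMT-93-PM1 and 9.78 in CMT-93, with 3 bright probe sets between -0.24 and -0.19 and a dim one at 0.22.

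The enzymes of the polyunsaturated route stood on the other side. Fads2, the desaturase that opens the route from linoleate and alpha-linolenate, read 9.11 in CMT-93-PM1 and 7.99 in CMT-93, 2.17-fold higher. Its other probe sets read 8.63 and 6.78 in CMT-93-PM1 and 7.84 and 5.65 in CMT-93, with ratios of 0.79 and 1.13, so all 3 had the same direction. Fads1, the desaturase that forms arachidonate later in the same route, read 9.97 in CMT-93-PM1 and 8.93 in CMT-93, 2.06-fold higher. A dim Fads1 probe set read 5.74 in CMT-93-PM1 and 5.88 in CMT-93, and with the median over both probe sets the Fads1 ratio was 0.45. Elovl5, the elongase that acts between those 2 desaturases, differed far less, at 11.59 in CMT-93-PM1 and 11.46 in CMT-93, with 0.26 by its other probe set. The higher values in this route were thus those of the desaturases.

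Among the regulators, Srebf2 and Insig1 were on the upper side and Srebf1 and Scap on the lower. Insig1, both a brake on SREBP processing and a target of it, read 8.99 in CMT-93-PM1 and 8.41 in CMT-93, 1.49-fold higher by its single probe set. Srebf2 read 8.66 in CMT-93-PM1 and 8.41 in CMT-93, with ratios of 0.25 and 0.31 by its 2 probe sets. Srebf1 read 9.22 in CMT-93-PM1 and 9.45 in CMT-93 by its single probe set, which was not assigned to a transcript form. The regulators therefore had no common direction. Scap, the escort protein, read 8.41 in CMT-93-PM1 and 9.07 in CMT-93, 1.58-fold lower, and its dim probe set read 4.18 and 4.70 in those lines, at or next to the floor. SREBP activity depends on cleavage of the protein, which these arrays do not measure. Stard4, a soluble sterol carrier and SREBP target, read 8.49 in CMT-93-PM1 and 8.39 in CMT-93, with -0.04 by each of its other probe sets.

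Mvd lay among neighbours that were themselves higher in the lung-recovered line. Among the 10 measured genes on either side of Mvd on chromosome 8, in the gene order of GRCm38.p6, 18 of 20 had ratios above 0 and the median was 0.58, against 0 for all 714 measured genes of that chromosome. The next measured gene, Cyba, a subunit of NADPH oxidase, read 11.23 in CMT-93-PM1 and 9.11 in CMT-93, 4.35-fold higher, and Galns, a lysosomal sulfatase, was 2.25-fold higher. Mvd lay 0.62 above the median of its neighbours. For the other 31 genes the same median of neighbours ran from -0.21 to 0.14. Around Fads1 and Fads2, which are themselves adjacent on chromosome 19, 6 of 19 other neighbours lay above 0, with a median of -0.07 and a highest ratio of 0.29. Their flanking genes Fads3 (10.34 in CMT-93-PM1 and 10.27 in CMT-93) and Fen1 (10.61 and 10.67 in those lines) were close to equal. The higher values there were thus limited, among these measured neighbours, to the pair of desaturases. The part of chromosomal position in these values was not tested.

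**Figure D4:**
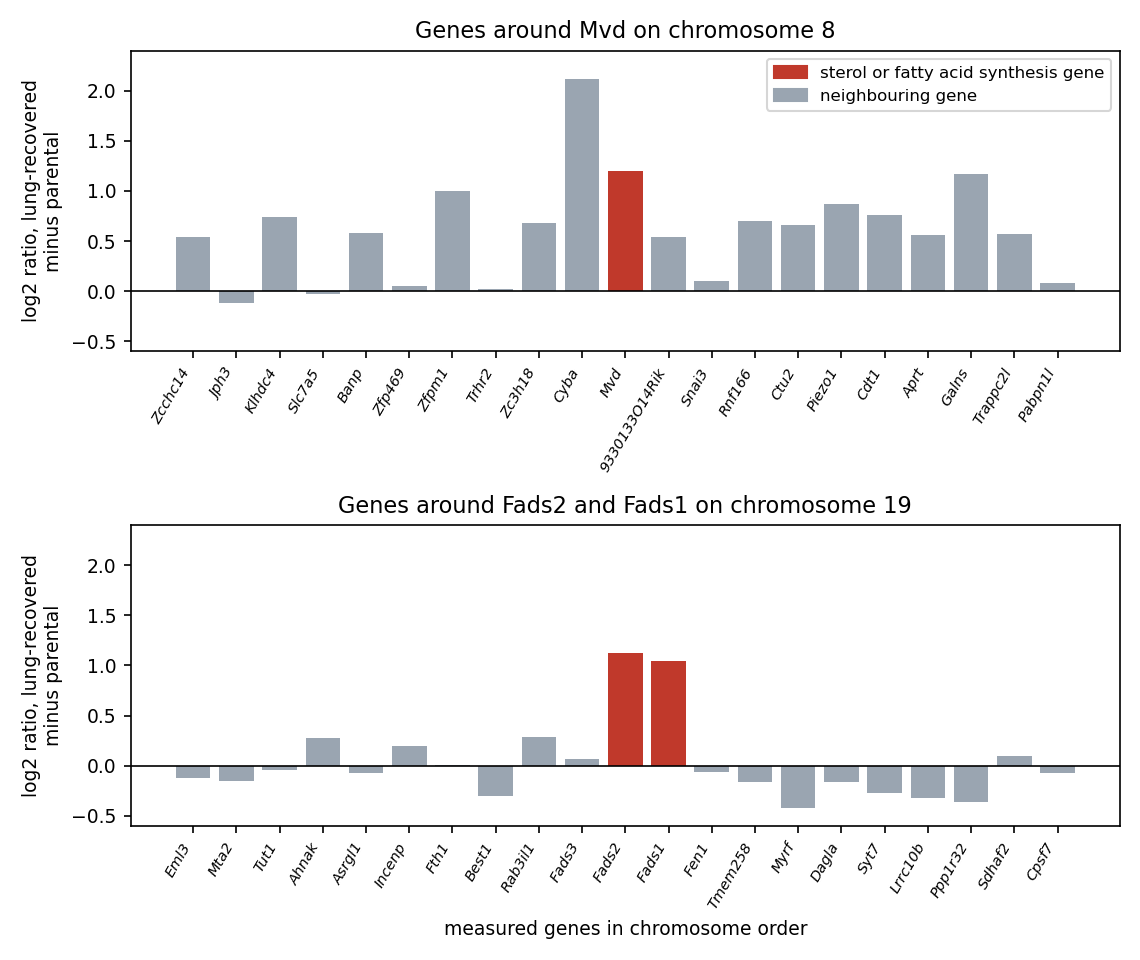
Log2 ratio, lung-recovered minus parental, of the 10 measured genes on each side of Mvd (upper panel) and of Fads2 (lower panel), in chromosome order. Red bars are sterol or fatty acid synthesis genes and grey bars their neighbours. Bars around Mvd are nearly all above 0, while Fads2 and Fads1 stand alone among low neighbours.

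Other genes of lipid handling were taken from 3 further lists, chosen like the 33 with earlier results of these data known. For sterol uptake, transport, sensing and the remaining synthesis steps, 14 of 20 listed genes were analysed and 13 were measured. Of these, 0 passed 2-fold in either direction, against 4.42% higher and 2.55% lower among all measured genes. The median log2 ratio was 0.12. Npc2, which carries cholesterol out of lysosomes, read 11.45 in CMT-93-PM1 and 10.87 in CMT-93, and the oxysterol-binding protein gene Osbp read 10.59 and 10.06 in those lines. At the lower end, the sterol-sensing receptor gene Nr1h3 read 5.18 in CMT-93-PM1 and 5.53 in CMT-93, and Msmo1, a sterol methyl oxidase of the same methyl removal step as Nsdhl, read 10.64 and 10.88 in those lines. The methyl removal enzymes were therefore not all on 1 side.

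The remaining genes of fatty acid synthesis, activation and glycerolipid assembly had differences in both directions. Of 26 listed genes 25 were analysed and 23 measured, and of these 1 was at least 2-fold higher, against 4.42% of all measured genes, and 3 were at least 2-fold lower, against 2.55%, with a median of -0.06. Hacd1, a dehydratase of the fatty acid elongation cycle, read 8.52 in CMT-93-PM1 and 5.67 in CMT-93, 7.21-fold higher, and 5.06-fold by its other probe set. Me1, the cytosolic malic enzyme that supplies NADPH for fatty acid synthesis, read 11.39 in CMT-93-PM1 and 12.85 in CMT-93, 2.75-fold lower, and 2.45-fold lower by its other probe set. Every probe set of both genes was therefore past 2-fold. Acsl5, a fatty acid-activating enzyme of the intestine, read 10.46 in CMT-93-PM1 and 11.58 in CMT-93, 2.17-fold lower. Elovl4, an elongase of very long chains, read 3.34 in CMT-93-PM1, at the floor, and 6.20 in CMT-93, at least 3.05-fold lower, where the bound is taken against the floor. The phosphatidate phosphatase gene Lpin1 was highest after Hacd1, at 7.77 in CMT-93-PM1 and 6.93 in CMT-93.

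For fatty acid oxidation and uptake 15 of 16 listed genes were analysed and 13 measured, with a median of -0.07. By the brightest probe set 0 passed 2-fold, against 4.42% higher and 2.55% lower among all measured genes. The carnitine palmitoyltransferase gene Cpt1a, which admits fatty acids to mitochondria, read 10.00 in CMT-93-PM1 and 9.70 in CMT-93, and the fatty acid carrier gene Fabp4 had a ratio of 0.44. The coactivator gene Ppargc1a read 10.35 in CMT-93-PM1 and 11.33 in CMT-93, 1.97-fold lower and between 1.68-fold and 2.07-fold lower by its other probe sets, and Acadvl, a mitochondrial dehydrogenase of very long acyl chains, read 9.59 and 10.16 in those lines.

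The ratios can be set beside the disagreement between probe sets of a gene. Several probe sets were clear of both floors for 20 genes, of which 11 had them all on the same side of 0, and the SD between them ran from 0.02 to 0.83 with a median of 0.20. The mixed genes were Idi1, Fdft1, Lss, Cyp51, Sc5d, Acss2, Elovl1, Fads1 and Stard4. Of the 32 genes, 22 had ratios larger in size than the median of that SD over all genes, 0.17, and 10 had ratios larger than its 90th percentile, 0.49. Shares of all measured genes past these 2 sizes were not counted, so the counts do not by themselves set the genes apart. At the nearby 1.5-fold limit, 11.5% of all measured genes were higher and 6.95% lower, against 21.9% and 6.25% of the 32 genes. The 10 were Pmvk, Mvd, Fdft1, Tm7sf2, Nsdhl, Fads1, Fads2 and Insig1 upward and Scd1 and Scap downward. Of these, Mvd, Fads2 and Scd1 had further probe sets clear of both floors that all had the same direction.

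**Figure D5:**
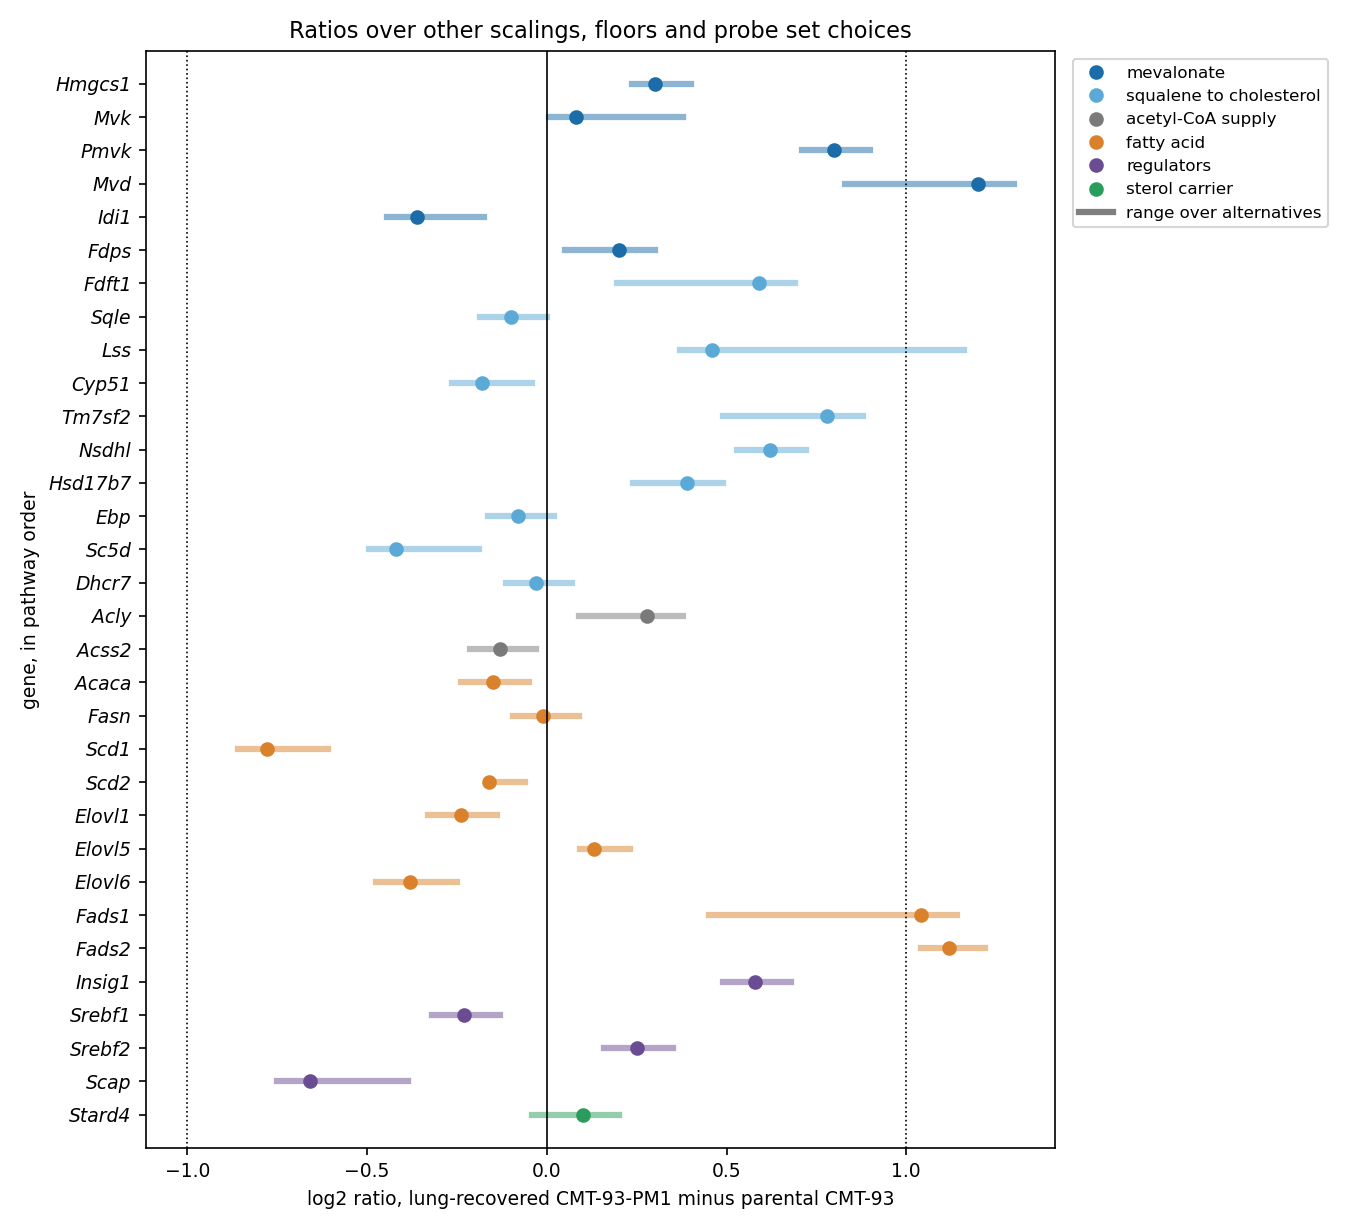
Log2 ratio of each gene as reported (points) and its range over 9 other scalings, floors and choices of probe set (bars), with dotted lines at 2-fold. Of the 32 genes, 27 stayed on 1 side of 0. Lss and Fads1 have the widest bars, 0.37 to 1.16 and 0.45 to 1.14.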

How the data were processed

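RNA from 1 culture of each line, 6 µg, was labelled with biotin and hybridized to an Affymetrix mouse array. The deposited values are log2 signals of 45037 probe sets per array. MAS5 is named in the submitters' processing notes, its role unstated, and background correction, summarisation and scaling are not given in the sources used here. The base was taken from the values, which reach 14.28 and 14.25 and in base 2 fit a scanner's range. Signals were used as deposited, since percentiles of the 2 columns differed by at most 0.11. Each array was floored at its 40th percentile, 4.59 log2 (CMT-93-PM1) and 4.69 (CMT-93).

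Probe sets were named from a platform annotation that lists 35877, of which 34945 have 1 symbol and 932 several. Symbols were updated by Entrez identifier to GRCm38.p6 for 34741 and kept for 204. Each gene was represented by its probe set of highest mean signal. Ratios, counts at 2-fold and 1.5-fold and medians were computed with Python 3.11.15, pandas 2.3.3 and numpy 2.4.6, lowess with statsmodels 0.14.6, after being tested on simulated data. With 1 array per group the number of arrays limits all precision. The genes and lists were chosen with earlier results of these data known. All 33 listed genes are named. From each other list the 2 furthest up, the 2 furthest down and all past 2-fold are named. From each marker list the brightest by mean signal and those at the floor on both arrays are named. The markers Cdh1, Cdx2, Cd3e, Lyz2, Tek, Kdr and Sftpb are named besides. Other neighbours were named after their values were seen. Alternatives tried were lowess (span 0.3), quantile normalization, equal array medians, no floor, a floor at the 60th or 20th percentile, the median over probe sets, leaving out probe sets of suffix _s_at, _x_at and _a_at, the mean in place of the median, and Acly and Acss2 counted as fatty acid genes.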

Additional observations from a re-analysis of the deposited data

How the results depend on the processing

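No paired analysis was possible because each line has 1 array. Over all alternatives the sterol median stayed above 0 (0.19 to 0.35) and the fatty acid median below 0 (-0.16 to -0.05). The mean of the fatty acid branch, however, was above 0, at 0.06. The difference between the branches stayed between 0.20 and 0.40, with 0.20 reached by the mean in place of the median, which gives Fads1 and Fads2 more weight. The number at least 2-fold higher was 2 or 3 and the number at least 2-fold lower was 0 in every setting, but the genes differed. Fads2 was past 2-fold in all settings run. Fads1 was at 0.96 after quantile normalization and after lowess and at 0.45 by the median over probe sets, and Mvd was at 0.83 without the suffixed probe sets, where Lss was at 1.16. The number at least 1.5-fold higher ran from 5 to 8. The number at least 1.5-fold lower was 1 with equal medians and with the median over all probe sets, and also 1 with the median over those above the floor on at least 1 array, a setting chosen after seeing the data. Scap was then at -0.56, -0.39 and -0.39. Dhcr7, Ebp, Fasn, Sqle and Stard4 changed sign or reached 0 in at least 1 alternative. Pmvk, Elovl1 and Srebf1 could not all be followed, since without suffixed probe sets 29 genes were left. Which of these settings is closest to the transcript levels was not tested.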

Other observations

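Idi1, among the lower sterol enzymes, lies on chromosome 13 with aldo-keto reductase genes among its measured neighbours, though not next to it. Of its 20 measured neighbours, 5 were at least 2-fold lower in the lung-recovered line, against 2.55% of all measured genes. In the other direction, 1 was at least 2-fold higher, against 4.42%. The higher one was Ero1b, an oxidase of the endoplasmic reticulum, 2.19-fold higher. The lower ones were Akr1c18 (6.81 log2 in CMT-93-PM1 and 12.05 in CMT-93), Akr1c12 (7.52 and 9.19 in those lines), Akr1c19 (6.34 and 7.77), Akr1c13 (8.80 and 10.20) and the actinin gene Actn2 (5.43 and 6.81). The aldo-keto reductase genes nearer to Idi1, Akr1c6 and Akr1e1, had ratios of -0.19 and 0.20. The median over the neighbours of Idi1 was 0.03, and the genes next to it, Wdr37 and Gtpbp4, had ratios of 0.59 and -0.08. Scd3, a further stearoyl-CoA desaturase gene beside Scd2, read 8.27 in CMT-93-PM1 and 9.78 in CMT-93, 2.85-fold lower, the largest difference of the 3 Scd genes examined. Pkd2l1, on the other side of Scd3, was 2.39-fold lower. These genes were named after their values were seen.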
